A study of Mus musculus with 45 samples.

Results

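Regulatory T cells (Treg) of visceral adipose tissue (VAT) were compared with Treg of the spleen in male mice, over all genes. The comparison rests on 4 of the 45 libraries of the series: 2 of male VAT Treg and 2 of male spleen Treg, chosen by their labels as reporter Treg without Cre. The VAT Treg were RFP-positive cells sorted from Foxp3RFP mice aged 25 weeks, with 4 mice pooled per library. The spleen Treg came from male Foxp3RFP mice, with 3 mice pooled per library, and their labels give neither an age nor the gate. All mice were of the C57BL/6 strain, and Foxp3RFP mice carry a red fluorescent reporter of Foxp3. Set beside them were YFP-positive Treg of male Foxp3Cre mice aged 25 weeks (1 VAT library and 2 spleen libraries, 4 mice pooled in each), VAT Treg of female Foxp3RFP mice aged 25 weeks (2 libraries, 4 mice pooled in each), spleen Treg of female Foxp3RFP mice (2 libraries, 3 mice pooled in each, no age given) and RFP-negative CD4 T cells of VAT from male Foxp3RFP mice aged 25 weeks (2 libraries, 4 mice pooled in each). Whole VAT of males aged 25 weeks (3 libraries with the tag ND in their titles, 3 mice pooled in each) gave levels in the tissue. Sums of some gene lists were also read in group 2 innate lymphoid cells (ILC2), GP38-positive stroma and adipocytes of male VAT. These were of mice aged 25 weeks, with 2 libraries each and 5, 4 and 4 mice pooled per library. In Foxp3Cre mice the Foxp3 locus drives Cre and YFP. VAT and spleen Treg labelled Blimp1Foxp3Cre and CD4 T cells of female VAT, all of mice aged 25 weeks, were not compared here. They entered the gene filter, the scaling and the estimate of the spread. The labels of the Foxp3Cre VAT library disagree: its title and tissue field give VAT, and its source text names spleen.

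Treg are CD4 T cells that restrain immune responses, and the transcription factor Foxp3 defines them. Those resident in visceral fat are known for the IL-33 receptor ST2, encoded by Il1rl1, for the epidermal growth factor family ligand amphiregulin, encoded by Areg, and for the anti-inflammatory cytokine IL-10, and they depend on IL-33 made by stromal cells of the depot. Treg of the spleen include many resting cells, which recirculate through lymphoid organs with the help of homing receptors such as CCR7. The comparison therefore sets a tissue-resident pool against a lymphoid one. As the spleen labels give neither age nor gate, tissue cannot be told apart from a difference in either.

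The 4 libraries carried the genes of their labels. Foxp3 (GRCm38.p6, chromosome X, 7579676 to 7595243) had 804.1 and 592.1 CPM (read counts scaled to library size, here by trimmed means) in male VAT Treg, against 233.7 and 209.5 CPM in male spleen Treg, and 0 and 4.415 CPM in reporter-negative VAT CD4 T cells. The VAT libraries lay above the spleen libraries, but the difference did not pass edgeR's quasi-likelihood test (log2 fold change 1.66, SE 0.70, adjusted p = 0.205). Cd4, the co-receptor gene, had 840.6 and 706.1 CPM in VAT Treg and 785.4 and 767.8 CPM in spleen Treg, and Cd3e, a chain of the T cell receptor complex, 671.1 and 466.0 CPM in VAT Treg and 634.0 and 681.1 CPM in spleen Treg; the groups overlapped for both. Reads assigned to genes numbered 26060177 and 26411216 in VAT Treg and 61913009 and 25091876 in spleen Treg. All fold changes are VAT over spleen on a log2 scale. The labels do not say that the pools of a group came from separate experiments. The p-values therefore measure the spread between libraries of a group, estimated jointly over the 19 T cell libraries of the series. These 19 include the libraries labelled Blimp1Foxp3Cre and those of female VAT CD4 T cells. In bulk RNA of sorted cells, fewer cells of a type and less RNA per cell cannot be told apart.

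Fat and spleen Treg differed at 1137 of 17340 genes tested (6.56%, edgeR adjusted p under 0.05): 608 genes were higher in VAT (3.51% of those tested) and 529 were lower (3.05%). The higher genes moved further. Their median log2 fold change was 2.63 and 394 of them exceeded a size of 2, whereas the lower genes had a median size of 1.49 and 164 exceeded it. The libraries of the groups did not overlap for any of the 608 or the 529 genes, as for 28.7% and 24.1% of all genes tested in those directions. A further contrast was in detection: 128 of the higher genes had no read in either spleen library, and 14 of the lower genes had none in either VAT library. The call count was 405 without spleen replicate 1, 565 without spleen replicate 2, 497 without VAT replicate 1 and 789 without VAT replicate 2. No gene that these fits called had the opposite direction to its call over all libraries.

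**Figure D1:**
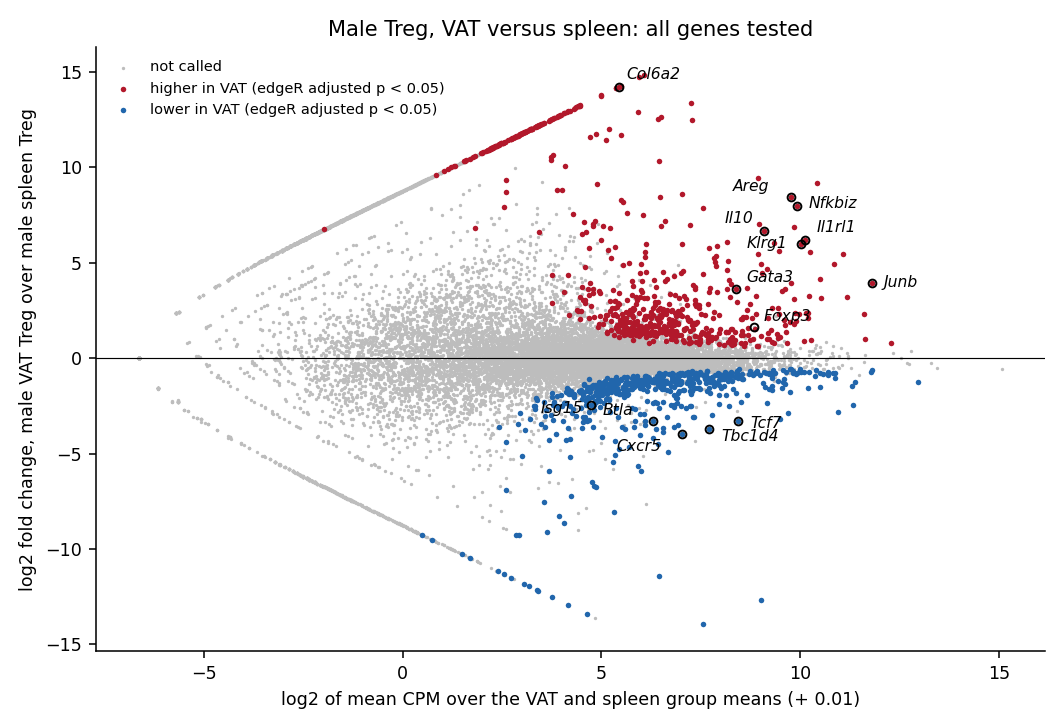
Each point is 1 of the 17340 genes tested; the x axis gives the log2 of the mean CPM of both groups, with 0.01 added, and the y axis the log2 fold change of male VAT over male spleen Treg. The 608 red genes were higher and the 529 blue genes lower in VAT at an edgeR adjusted p under 0.05, Il1rl1, Areg and Il10 lie high at large means, and the slanted upper edge holds genes without a read in spleen.

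Genes known from visceral fat Treg were mostly higher in VAT. Of the 20 members of this list 16 were called higher and 1 lower, with a median log2 fold change of 4.05 against 0.02 over all genes tested. Il1rl1 (chromosome 1, 40404864 to 40465418) had 2523 and 1874 CPM in VAT Treg, against 33.86 and 25.08 CPM in spleen Treg. The VAT level was thus about 74.5-fold higher (log2 fold change 6.22, SE 0.30, adjusted p = 1.65e-09 by edgeR). Areg (chromosome 5, 91139599 to 91148432) reached 2514 and 991.1 CPM in VAT Treg and stayed at 6.581 and 3.375 CPM in spleen Treg, and Il10 (chromosome 1, 131019845 to 131024970) reached 972.1 and 1172 CPM in VAT Treg against 13.24 and 7.889 CPM in spleen Treg. Their log2 fold changes were 8.44 (SE 0.64, adjusted p = 2.54e-07) and 6.66 (SE 1.08, adjusted p = 0.000807). Every VAT value of these genes lay above every spleen value, and the VAT libraries differed from each other for Areg by more than the gap between the groups in CPM. Klrg1, an inhibitory lectin-like receptor gene of terminally differentiated lymphocytes, had 2148 and 1966 CPM in VAT Treg and 34.79 and 30.3 CPM in spleen Treg (log2 fold change 5.98, SE 0.49, adjusted p = 7.01e-07). Fgl2, whose secreted product is an effector of Treg suppression, had 2973 and 2531 CPM in VAT Treg and 152.8 CPM in both spleen libraries (log2 fold change 4.17). Pparg, the nuclear receptor gene known for fat Treg, had 91.16 and 110.4 CPM in VAT Treg and 15.59 and 6.712 CPM in spleen Treg, and did not pass (3.17, adjusted p = 0.0578). Batf, a transcription factor gene of effector Treg, was the member that was lower (69.43 and 84.61 CPM in VAT Treg, 188.6 and 168.1 CPM in spleen Treg; log2 fold change -1.21, adjusted p = 0.014). Its call was lost without VAT replicate 1 or without either spleen replicate, at an adjusted p of up to 0.159. The list summed to 20283 and 16480 CPM in VAT Treg and 1151 and 1056 CPM in spleen Treg. Whole male VAT held 10850 CPM of it (unscaled CPM), and members such as Cd36 and Pparg are also adipocyte genes. ILC2 of male VAT held a mean of 23820 CPM of it (unscaled CPM), so the list is not particular to Treg of the depot. Without 1 library, the number of its members called higher was between 11 and 14.

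**Figure D2:**
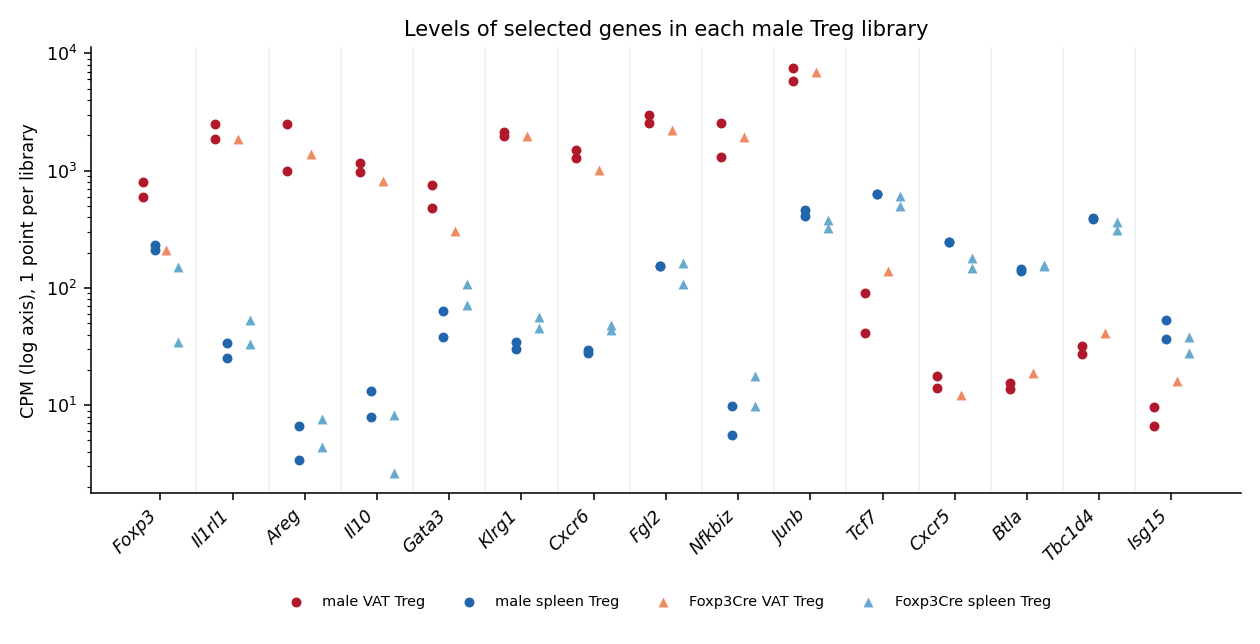
The y axis gives CPM on a log scale for 15 genes, with 1 point per library; circles are reporter Treg and triangles Foxp3Cre Treg, VAT in red or orange and spleen in dark or light blue. From Il1rl1 to Junb the VAT points lie above the spleen points, from Tcf7 to Isg15 below them, and Foxp3 separates the reporter libraries without passing the test.

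Secreted cytokine genes rose in part. Of 25 tested members 7 were called higher and 2 lower (median log2 fold change 0.95). The list summed to 5250 and 3770 CPM in VAT Treg and 2072 and 1955 CPM in spleen Treg. ILC2 of male VAT held a mean of 7703 CPM of it (unscaled CPM). Il5, a type 2 cytokine that sustains eosinophils, had 25.69 and 26.15 CPM in VAT Treg and no read in spleen Treg, at least 764-fold higher against a floor of 3 counts over the spleen group. Il13, a type 2 cytokine of barrier and metabolic responses, had 62.39 and 25.04 CPM and Csf2, encoding the growth factor GM-CSF, 27.33 and 6.195 CPM in VAT Treg, again with no read in spleen Treg; these are at least 1288-fold and 494-fold higher. These bounds cover counting error only. Csf1, the macrophage growth factor gene, had 177.2 and 156.5 CPM in VAT Treg against 29.9 and 29.2 CPM in spleen Treg (log2 fold change 2.50, adjusted p = 0.00301). The 2 lower members were Ltb, the lymphotoxin beta gene needed for lymphoid tissue architecture (-1.55, adjusted p = 3.26e-05), and Tnfsf8, the CD30 ligand gene (-2.84, adjusted p = 5.73e-05). Without spleen replicate 1 the calls were 2 higher and 2 lower, and Il5 (adjusted p = 0.0777) and Csf1 (0.0562) were lost; Il13 and Csf2 were lost in 4 and 3 of the fits without 1 library, at an adjusted p of up to 0.321 and 0.269.

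Among 30 cytokine receptor genes 7 were called higher and 1 lower. Il10ra, which encodes the ligand-binding chain of the IL-10 receptor, was higher in VAT alongside its ligand (862.5 and 622.0 CPM in VAT Treg, 109.5 and 97.73 CPM in spleen Treg; log2 fold change 2.84, SE 0.23, adjusted p = 6.97e-07). Ifngr1, a chain of the interferon gamma receptor, rose by 1.28 (adjusted p = 0.00192) and Il2ra, the high-affinity IL-2 receptor chain that Treg use, by 2.09 (842.0 and 582.6 CPM in VAT Treg, 142.6 and 192.4 CPM in spleen Treg; adjusted p = 0.00115). Il21r, the receptor gene for the follicular helper cytokine IL-21, was the lower member (139.8 and 104.3 CPM in VAT Treg, 333.5 and 328.6 CPM in spleen Treg; -1.44, adjusted p = 0.00267). Without spleen replicate 1 or 2 the list had 4 higher members.

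Receptor genes that guide migration moved in both directions. Of 23 chemokine and migration receptor genes 6 were called higher and 4 lower. Cxcr6 had 1502 and 1279 CPM in VAT Treg against 29.26 and 28.02 CPM in spleen Treg (log2 fold change 5.60, SE 0.37, adjusted p = 3.83e-08); Cxcr6 is a receptor of T cells in peripheral tissue. Ccr2, the receptor for monocyte-attracting chemokines, had 1946 and 1345 CPM in VAT Treg against 87.96 and 129.4 CPM in spleen Treg (3.92, adjusted p = 1.34e-06). Ltb4r1, the leukotriene B4 receptor gene, had 1168 and 828.2 CPM in VAT Treg against 6.438 and 8.988 CPM in spleen Treg (7.02, adjusted p = 0.000504). Cxcr5, which leads cells into B cell follicles, had 17.76 and 13.98 CPM in VAT Treg against 247.2 and 244.8 CPM in spleen Treg (-3.95, SE 0.27, adjusted p = 7.4e-08). Gpr183, an oxysterol receptor gene of lymphoid positioning, fell by 1.70 (adjusted p = 0.00349), and Cxcr3, a receptor of type 1 responses, by 1.85 (adjusted p = 2.55e-05). Ccr7, the lymph node homing receptor gene, had 73.24 and 16.54 CPM in VAT Treg and 170.0 and 217.6 CPM in spleen Treg; its call (-2.11, adjusted p = 0.0195) was lost without either spleen replicate or without VAT replicate 2, at an adjusted p of up to 0.119. Without spleen replicate 2 the list had 3 higher and 3 lower members, and without spleen replicate 1 it had 4 and 3.

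Among 20 genes typical of resting or lymphoid-homing T cells 9 were called lower and 2 higher, with a median log2 fold change of -1.0. Tcf7, the transcription factor gene of naive and memory-like T cells, had 90.3 and 40.88 CPM in VAT Treg against 635.2 and 629.4 CPM in spleen Treg (-3.27, SE 0.32, adjusted p = 4.75e-06). VAT replicate 2 was the lower of the VAT libraries for Tcf7 and Ccr7. Klf2 (522.0 and 396.8 CPM in VAT Treg, 296.1 and 271.8 CPM in spleen Treg; 0.69, adjusted p = 0.285) and its target S1pr1, the receptor for exit from tissue (-0.96, adjusted p = 0.0733), did not pass. The higher members were Il7r, the IL-7 receptor gene (1.52), and Ly6c1, a surface antigen gene (2.87), and both lost the call without either spleen replicate, Ly6c1 also without either VAT replicate (adjusted p of up to 0.089 and 0.379). The list had 4 lower members without spleen replicate 1, without spleen replicate 2 or without VAT replicate 2, and 5 in the fit over the 4 libraries alone.

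Of 28 effector T cell transcription factor genes, 8 were called higher and 2 lower. Gata3, the master regulator of type 2 T cells, had 760.8 and 479.8 CPM in VAT Treg and 38.35 and 63.31 CPM in spleen Treg (log2 fold change 3.61, SE 0.42, adjusted p = 3e-05). Fosl2, an AP-1 family gene, had 1753 and 801.4 CPM in VAT Treg and 22.81 and 15.5 CPM in spleen Treg (6.06, adjusted p = 1.07e-05). Id2, an inhibitor of E proteins, rose by 2.06 (adjusted p = 4.31e-05), and Rbpj, the DNA-binding partner of Notch, by 1.84 (adjusted p = 7.38e-05). Irf4, needed for effector Treg, had 358.4 and 206.4 CPM in VAT Treg and 166.9 and 135.3 CPM in spleen Treg and did not pass (0.90, adjusted p = 0.172). Prdm1, which encodes Blimp1, had 153.9 and 149.8 CPM in VAT Treg and 49.18 and 62.64 CPM in spleen Treg (1.44, adjusted p = 0.0224), and this call was lost in each of the 4 fits without 1 library, at an adjusted p of up to 0.252. The list had 4 higher members without spleen replicate 1, spleen replicate 2 or VAT replicate 1.

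Treg core genes did not move together: 2 of 20 were called higher and 4 lower, with a median log2 fold change of -0.08. Ctla4, an inhibitory receptor through which Treg suppress, was higher (1815 and 1494 CPM in VAT Treg, 202.5 and 183.5 CPM in spleen Treg; 3.10, SE 0.36, adjusted p = 2.75e-05), as was Il2ra. Izumo1r, the folate receptor 4 gene, was lower (179.6 and 224.8 CPM in VAT Treg, 1480 and 1445 CPM in spleen Treg; -2.85, SE 0.22, adjusted p = 2.4e-07). Nt5e, which encodes the adenosine-producing enzyme CD73, was lower too (39.32 and 29.12 CPM in VAT Treg, 282.2 and 291.8 CPM in spleen Treg; -3.07, adjusted p = 2.43e-06). The other 2 lower members, the integrin gene Itgae (-2.46) and the inhibitory receptor gene Tigit (-0.87), lost the call without spleen replicate 2 or VAT replicate 1, and Tigit also without spleen replicate 1, at an adjusted p of up to 0.0995 and 0.332. Ikzf2, which encodes Helios, had 434.3 and 277.1 CPM in VAT Treg and 363.4 and 340.5 CPM in spleen Treg, with overlapping groups (0.02, SE 0.28).

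Of 26 costimulatory and inhibitory receptor genes 9 were called lower and 4 higher. Btla, an inhibitory receptor gene of lymphocytes, had 13.79 and 15.51 CPM in VAT Treg against 139.4 and 144.7 CPM in spleen Treg (-3.28, SE 0.24, adjusted p = 1.28e-07). Cd96 fell by 2.29 (adjusted p = 6.96e-05) and Slamf6, a receptor of follicular and memory-like cells, by 2.93 (adjusted p = 0.000288). Lag3, an MHC class II binding inhibitory receptor gene, had 59.82 and 115.5 CPM in VAT Treg and 506.8 and 492.0 CPM in spleen Treg (-2.51, adjusted p = 0.00435), a call lost without VAT replicate 1 (adjusted p = 0.0771). Beside Ctla4, the higher members included Tnfrsf25, the death receptor 3 gene to which TL1A binds (2.24, adjusted p = 0.000101), and Cd40lg, the CD40 ligand gene (1.95, adjusted p = 0.00177). The list had 3 higher and 4 lower members without spleen replicate 1, 3 and 5 without spleen replicate 2 and 4 and 4 without VAT replicate 1. Further genes were among the 12 lower ones of smallest p. Tbc1d4, which controls traffic of glucose transporters, had 31.95 and 27.45 CPM in VAT Treg against 390.1 and 391.9 CPM in spleen Treg (-3.72, SE 0.22, adjusted p = 1.42e-08). Sh2d1a, the adaptor SAP of SLAM family receptors, had 15.42 and 24.37 CPM in VAT Treg against 230.6 and 213.6 CPM in spleen Treg (-3.48, adjusted p = 8.95e-07). Lax1, an adaptor that dampens lymphocyte receptor signals (-3.51), Art2b, an ADP-ribosyltransferase gene of the T cell surface (-3.66), Ift80, a gene of intraflagellar transport (-3.08), and Pnrc2, a gene of mRNA decay (-1.71), fell as well. Of 20 T cell receptor signalling genes 8 were called lower and none higher, among them Ptpn22, a phosphatase gene that restrains the receptor (-1.56, adjusted p = 7.12e-05), and Cd3d (-1.21, adjusted p = 0.000537), while the groups overlapped for Cd3e and Cd4. That count was 5, 3, 4 and 3 without spleen replicate 1, spleen replicate 2, VAT replicate 1 and VAT replicate 2. Ctsw, a protease gene of cytotoxic lymphocytes, fell by 2.59 (adjusted p = 4.1e-05), while the other called member of the 15 killer lectin and cytotoxic genes was Klrg1.

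Of 25 adhesion and tissue-residence genes 12 were called higher and 1, Itgae, lower (median log2 fold change 1.36). Vim, the intermediate filament gene, had 5302 and 3008 CPM in VAT Treg against 452.8 and 451.3 CPM in spleen Treg (3.20, SE 0.27, adjusted p = 7.38e-07). S100a4 and S100a6, calcium-binding protein genes of activated and motile cells, rose by 2.35 and 2.31 (adjusted p = 4.75e-06 and 6.39e-06). Cd69, which retains lymphocytes in tissue and is also induced early on activation, had 1984 and 777.8 CPM in VAT Treg against 147.5 and 93.69 CPM in spleen Treg (3.52, adjusted p = 1.18e-05). Vim is also a fibroblast gene, and whole male VAT held 1508 CPM of it.

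Genes of lipid uptake and metabolism rose in 10 of 30 cases with none called lower (median log2 fold change 1.08). Hilpda, a lipid droplet gene that inhibits lipolysis, had 691.7 and 233.5 CPM in VAT Treg against 12.16 and 10.56 CPM in spleen Treg (5.35, SE 0.56, adjusted p = 1.07e-05). Dgat1, the last enzyme of triglyceride synthesis, had 257.7 and 153.6 CPM in VAT Treg and 39.75 and 35.09 CPM in spleen Treg (2.46, adjusted p = 0.000112). Cpt1a, the entry enzyme of mitochondrial fatty acid oxidation, had 190.5 and 190.0 CPM in VAT Treg and 53.73 and 55.58 CPM in spleen Treg (1.80, adjusted p = 0.000248). Cd36, the fatty acid transporter gene, was at 217.9 CPM in VAT replicate 1 and 1687 CPM in VAT replicate 2, against 23.37 and 19.78 CPM in spleen Treg. Adipocyte markers summed to 216.0 and 857.4 CPM and macrophage markers to 609.4 and 2602 CPM in the same VAT libraries, whole VAT held 6802 CPM of Cd36, and the part of other cells in its value was not tested; its call (5.46, adjusted p = 0.0213) was lost without VAT replicate 2 and without either spleen replicate, at an adjusted p of up to 0.215. Fewer members were called higher without either spleen replicate, at a median log2 fold change of 1.12 in each fit. The same held without the 4 libraries highest in markers of other cells, at a median of 1.11. Those 4 include spleen replicate 1 but neither VAT library of this comparison. Of 22 glycolysis and hypoxia genes 3 were called higher, including the oxygen sensor gene Egln3 (2.15) and Ndrg1 (2.47), and these calls did not hold without spleen replicate 2 or VAT replicate 1, where the list had none. Oxidative phosphorylation genes had 1 call of 20, Ndufa4, which was lower (-1.61, adjusted p = 0.00144). Among cell cycle genes none of 20 was called by edgeR, 2 had an unadjusted p under 0.05, and DESeq2 and limma-voom each called 2.

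**Figure D3:**
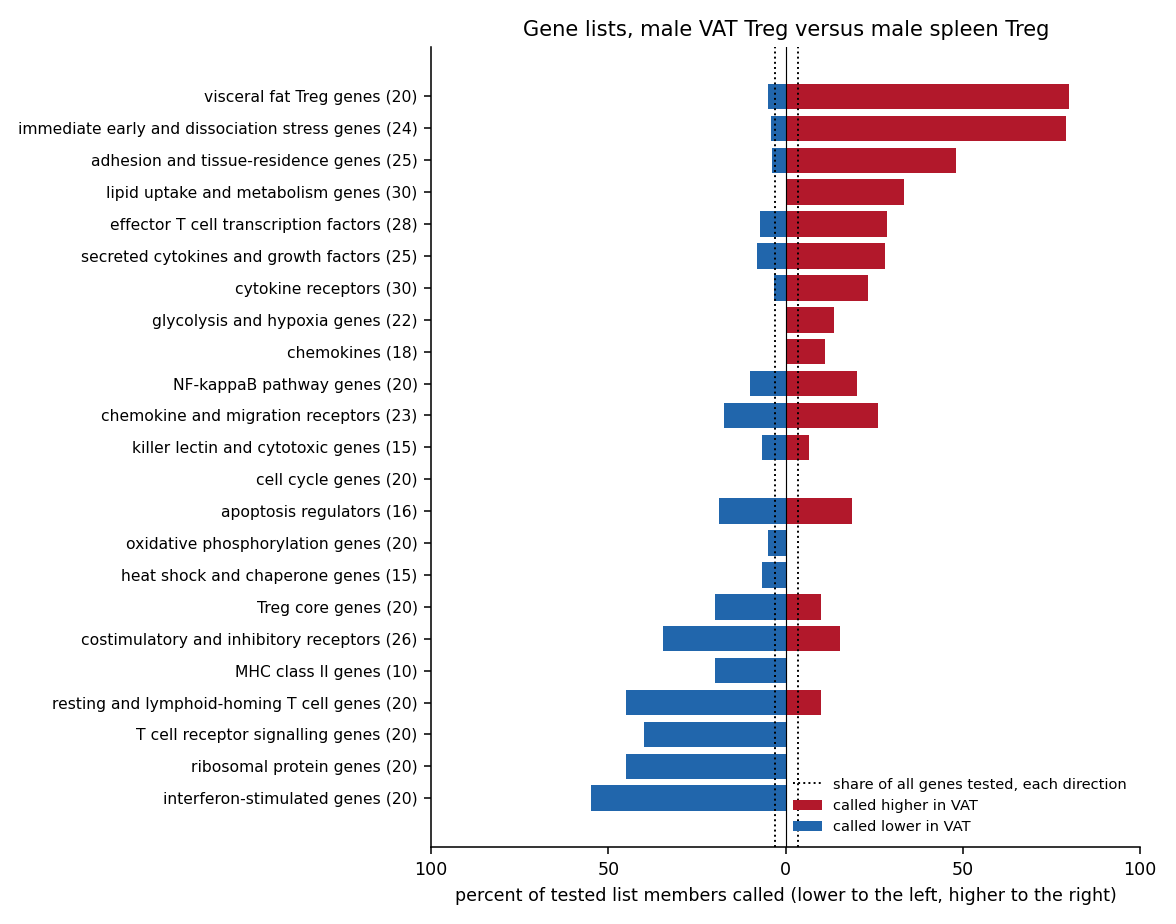
Bars give the percent of each list's tested members (their number in brackets) called higher in male VAT than in male spleen Treg to the right and called lower to the left; dotted lines mark the shares over all genes tested, 3.51% and 3.05%. Among the lists drawn, which leave out markers of other cells, visceral fat Treg genes and immediate early genes reach furthest to the right, and interferon-stimulated genes furthest to the left.

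Immediate early genes, which respond within minutes to receptor signals and also to enzymatic release of cells from tissue, were higher in VAT. Of 24 members 19 were called higher and 1 lower, with a median log2 fold change of 3.20, and the list summed to 42666 and 26442 CPM in VAT Treg against 4000 and 3855 CPM in spleen Treg. Junb, an AP-1 subunit, had 7559 and 5776 CPM in VAT Treg against 460.1 and 414.4 CPM in spleen Treg (3.93, SE 0.23, adjusted p = 1.42e-08). Fosb, another AP-1 subunit, had 3490 and 1974 CPM in VAT Treg against 3.942 and 5.495 CPM in spleen Treg (9.19, SE 0.81, adjusted p = 1.34e-06). Dusp1, a phosphatase of stress kinases, rose by 5.56, the stress gene Ppp1r15a by 4.84 and Csrnp1 by 3.60. Reporter-negative CD4 T cells of the same fat depot held 12173 and 13740 CPM of the list and whole male VAT 1290 CPM. ILC2, GP38-positive stroma and adipocytes of male VAT held means of 27542, 22277 and 12892 CPM of it (unscaled CPM). Female VAT Treg held 9899 and 10696 CPM of it, against 4078 and 4200 CPM in female spleen Treg. The list moved with the tissue in each set of Treg libraries, and its part in the other genes that rose was not tested. Of 20 NF-kappaB pathway genes 4 were called higher and 2 lower, and the 4 encode A20 and members of the inhibitor of kappaB family. Nfkbiz, an inducible nuclear member of that family, had 2548 and 1310 CPM in VAT Treg against 5.563 and 9.93 CPM in spleen Treg (7.97, SE 0.48, adjusted p = 1.42e-08). Tnfaip3, the deubiquitinase A20 gene, rose by 4.94, Nfkbid by 3.88 and Nfkbia by 2.35 (adjusted p = 1.85e-06, 1.07e-05 and 1.46e-05). Of 18 chemokine genes 2 were called higher, Cxcl2 (1234 and 720.2 CPM in VAT Treg, 2.527 and 0 CPM in spleen Treg; 9.44) and Cxcl1 (8.551 and 57.79 CPM in VAT Treg, no read in spleen Treg; at least 977-fold higher), both neutrophil attractants. The call of Cxcl2 was lost without spleen replicate 2 (adjusted p = 0.0635), and that of Cxcl1 without either spleen replicate, at an adjusted p of up to 0.223.

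Promoters of the genes that define the comparison were read from RefSeq (GRCm38.p6), as windows from 250 bases before to 50 bases after the annotated start. They are shown to place response elements in genes that moved: the cAMP response element TGACGTCA in Areg, the kappaB element (GGGA and TTTCC, 1 base apart) in Cxcl2, the GATA element AGATAA at the 2 starts that the promoter table lists for Il1rl1, both inside the annotated span of the gene, and the interferon-stimulated response element (GAAA at both ends, 2 bases apart) in Isg15, each in capitals, on either strand. The windows are chr5:91139349-91139648 (Areg, plus strand), chr5:90903649-90903948 (Cxcl2, plus strand), chr1:40429320-40429619 and chr1:40439379-40439678 (Il1rl1, plus strand) and chr4:156200769-156201068 (Isg15, minus strand).
Areg: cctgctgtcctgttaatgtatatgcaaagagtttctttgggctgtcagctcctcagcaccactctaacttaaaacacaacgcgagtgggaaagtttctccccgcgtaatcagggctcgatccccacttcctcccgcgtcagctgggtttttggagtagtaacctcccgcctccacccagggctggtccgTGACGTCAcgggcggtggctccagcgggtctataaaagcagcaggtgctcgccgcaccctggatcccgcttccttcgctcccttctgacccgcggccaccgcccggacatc
Cxcl2: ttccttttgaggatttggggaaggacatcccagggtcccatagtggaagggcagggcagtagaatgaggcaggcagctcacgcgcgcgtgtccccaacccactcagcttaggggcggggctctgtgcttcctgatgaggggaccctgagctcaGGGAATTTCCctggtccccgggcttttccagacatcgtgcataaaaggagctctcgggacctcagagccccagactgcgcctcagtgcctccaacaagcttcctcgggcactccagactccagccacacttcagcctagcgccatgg
Il1rl1, upstream start: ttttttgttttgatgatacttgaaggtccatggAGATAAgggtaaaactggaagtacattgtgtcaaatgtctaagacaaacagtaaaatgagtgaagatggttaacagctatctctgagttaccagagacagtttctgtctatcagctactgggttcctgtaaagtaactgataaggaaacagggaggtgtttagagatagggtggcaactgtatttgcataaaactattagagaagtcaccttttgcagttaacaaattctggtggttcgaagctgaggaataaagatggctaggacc
Il1rl1, downstream start: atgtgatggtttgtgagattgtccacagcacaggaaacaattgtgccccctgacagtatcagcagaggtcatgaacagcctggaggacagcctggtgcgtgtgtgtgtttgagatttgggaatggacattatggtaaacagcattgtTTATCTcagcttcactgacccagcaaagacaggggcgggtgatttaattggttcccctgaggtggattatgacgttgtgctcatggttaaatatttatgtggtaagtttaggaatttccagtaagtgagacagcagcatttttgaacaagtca
Isg15: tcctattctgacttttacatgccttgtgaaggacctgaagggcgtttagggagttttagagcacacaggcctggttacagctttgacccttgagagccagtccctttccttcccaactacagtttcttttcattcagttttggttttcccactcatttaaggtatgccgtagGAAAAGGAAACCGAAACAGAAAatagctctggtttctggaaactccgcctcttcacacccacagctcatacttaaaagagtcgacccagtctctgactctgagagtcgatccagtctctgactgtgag
The element of Areg begins 61 bases and that of Cxcl2 97 bases before the start, those of Il1rl1 217 and 103 bases before theirs, and in Isg15 3 matches overlap each other from 78 bases before the start. No searched element contains another. Among 468 genes higher in VAT that had a promoter in the table, 2.99% held the cAMP response element, 1.28% the kappaB element and 8.33% the GATA element, and among the 12564 tested genes with a promoter the shares were 2.92%, 0.43% and 7.09%. Among the 370 lower genes with a promoter they were 2.7%, 1.08% and 8.11%, close to those of the higher genes. Only the first listed start of a gene was counted. These are matches of letters, not sites of binding.

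Interferon-stimulated genes fell in male VAT Treg. Of 20 members 11 were called lower and none higher, with a median log2 fold change of -1.48, and the list summed to 686.2 and 921.9 CPM in VAT Treg against 2339 and 2143 CPM in spleen Treg. Irf9, a transcription factor gene of interferon signalling, had 47.13 and 83.32 CPM in VAT Treg against 217.4 and 195.9 CPM in spleen Treg (-1.66, adjusted p = 0.000899). Isg15, the ubiquitin-like modifier gene whose promoter is shown above, had 6.587 and 9.571 CPM in VAT Treg against 53.39 and 36.7 CPM in spleen Treg (-2.48, SE 0.42, adjusted p = 0.0012), and Zbp1, a sensor of nucleic acids, fell by 1.40 (adjusted p = 0.00167). These 3 genes were called in each of the 4 fits that left out 1 library. The list had 8 lower members without spleen replicate 1, 5 without spleen replicate 2 or VAT replicate 1, 6 without VAT replicate 2 and 5 in the fit over the 4 libraries alone. The interferon-stimulated response element stood in 37 of 370 promoters of lower genes (10%), in 14 of 468 promoters of higher genes (2.99%) and in 3.19% of promoters of all tested genes. Among the 14 list members with a promoter 8 held it (57.1%), and of 363 lower genes that are not list members 34 held it (9.37%). The list has 20 members only, and some of these 34 genes are interferon-induced genes outside it.

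Ribosomal protein genes were lower by small amounts: 9 of 20 were called lower and none higher, with a median log2 fold change of -0.57, and the list summed to 15272 and 14203 CPM in VAT Treg against 20984 and 22342 CPM in spleen Treg. Rps9 had 875.5 and 924.0 CPM in VAT Treg against 1738 and 1756 CPM in spleen Treg (-0.96, SE 0.16, adjusted p = 0.00112), and Rps19 fell by 1.04, a call lost without spleen replicate 2 or VAT replicate 1 (adjusted p of up to 0.0785). The count fell to between 1 without spleen replicate 2 or VAT replicate 1 and 3 without VAT replicate 2. Near-identical copies of ribosomal protein genes can share reads, so single members are uncertain. The mitochondrial chaperone gene Hspe1 was the 1 call of 15 heat shock and chaperone genes (-1.45, adjusted p = 0.000913). Of 16 apoptosis regulators 3 were called in each direction: the survival gene Bcl2l1 rose by 1.85 (adjusted p = 0.00215), and the death receptor gene Fas fell by 2.33, a call lost without VAT replicate 1 (adjusted p = 0.0576). Without either spleen replicate the list had 1 higher and 2 lower members, and without VAT replicate 1 it had 1 and 0.

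Markers of other cells separated the same libraries. All 10 fibroblast markers were called higher in VAT, and they summed to 591.2 and 1779 CPM in VAT Treg against 0.2543 and 2.708 CPM in spleen Treg, where 6 of the 10 had no read. Col1a2, a collagen chain gene, had 91.52 and 266.7 CPM in VAT Treg and 0 and 0.0785 CPM in spleen Treg, and Fbln2, a matrix glycoprotein gene, 53.27 and 111.6 CPM in VAT Treg with no read in spleen Treg. The matrix genes Col4a2, Col6a2 and Bgn were among the 4 genes taken for the largest log2 fold changes. Col4a2 had 66.89 and 177.5 CPM, Col6a2 39.11 and 134.4 CPM and Bgn 42.02 and 123.6 CPM in VAT Treg, with no read in spleen Treg. VAT replicate 2 was the higher library for each of these genes. The list had 3 called members without spleen replicate 1 and 5 without spleen replicate 2, and the call of Col4a2 was lost without spleen replicate 1 (adjusted p = 0.0597). Endothelial markers had 5 of 10 called higher (209.8 and 531.9 CPM in VAT Treg, 45.32 and 69.51 CPM in spleen Treg), and 1 of 10 without spleen replicate 1 and 3 without spleen replicate 2 or VAT replicate 2. Adipocyte markers had 1 of 10 called, the fatty acid binding protein gene Fabp4, at 183.7 and 765.9 CPM in VAT Treg against 8.377 and 7.418 CPM in spleen Treg (5.91); it lost the call without either spleen replicate, at an adjusted p of up to 0.146. Mesothelial markers, with none of 7 called, summed to 148.4 and 111.8 CPM in VAT Treg and 8.17 and 5.181 CPM in spleen Treg, where 6 of the 7 had no read; 5 had an unadjusted p under 0.05, and DESeq2 and limma-voom each called 3. Macrophage markers (609.4 and 2602 CPM in VAT Treg, 952.8 and 990.6 CPM in spleen Treg) had none of 14 called by edgeR, DESeq2 or limma-voom and 0 at an unadjusted p under 0.05. Dendritic cell markers (36.0 and 164.3 CPM in VAT Treg, 30.93 and 19.98 CPM in spleen Treg) had none of 8 called by these tools and 3 at an unadjusted p under 0.05. The part of these cells in the genes that rose was not tested.

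In the other direction, 8 of 10 B cell markers were called lower in VAT, with sums of 494.8 and 1159 CPM in VAT Treg against 4981 and 5140 CPM in spleen Treg. Ighm, the immunoglobulin mu chain gene, had 462.4 and 1101 CPM in VAT Treg against 4282 and 4352 CPM in spleen Treg (-2.46, adjusted p = 0.00253). Cd79a, a signalling chain of the B cell receptor (-4.19), Ighd (-3.59) and the B cell kinase gene Blk (-8.25; 0 and 0.1855 CPM in VAT Treg, 30.61 and 29.91 CPM in spleen Treg) were of the same kind. The class II chaperone genes H2-Ob (8.183 and 9.088 CPM in VAT Treg, 92.4 and 115.6 CPM in spleen Treg; -3.59) and H2-DMb2 (-4.11) fell with them, as 2 of 10 MHC class II genes. Jchain, the joining chain gene of plasma cells and 1 of 2 called among 8 plasma cell markers, fell by 3.18 (140.6 and 143.2 CPM in VAT Treg, 1265 and 1315 CPM in spleen Treg), and Slc40a1, the iron exporter gene of red pulp macrophages, by 5.65 (1.391 and 3.301 CPM in VAT Treg, 149.1 and 86.94 CPM in spleen Treg). Immunoglobulin segments made up 28 of the 529 lower genes. Red blood cell markers summed to 250.8 and 186.8 CPM in VAT Treg and 1898 and 771.1 CPM in spleen Treg, with none of 5 called by edgeR, 4 at an unadjusted p under 0.05, 2 called by DESeq2 and 0 by limma-voom. Neutrophil markers summed to 8.919 and 28.38 CPM in VAT Treg and 607.0 and 450.2 CPM in spleen Treg, with 1 of 8 called. NK cell markers (30.89 and 149.0 CPM in VAT Treg, 64.88 and 76.54 CPM in spleen Treg) and CD8 T cell markers (36.25 and 17.73 CPM in VAT Treg, 28.02 and 43.65 CPM in spleen Treg) overlapped between the groups, and the sums of mast cell and eosinophil markers were 83.83 and 26.23 CPM in VAT Treg and 19.57 and 20.21 CPM in spleen Treg. Of these edgeR called none, with 2 of 8, 0 of 2 and 1 of 9 members at an unadjusted p under 0.05; DESeq2 called 1, 0 and 1 and limma-voom 0, 0 and 1. B cell markers had 4, 3, 3 and 4 lower members without spleen replicate 1, spleen replicate 2, VAT replicate 1 and VAT replicate 2, and their part in the genes that fell was not tested.

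**Figure D4:**
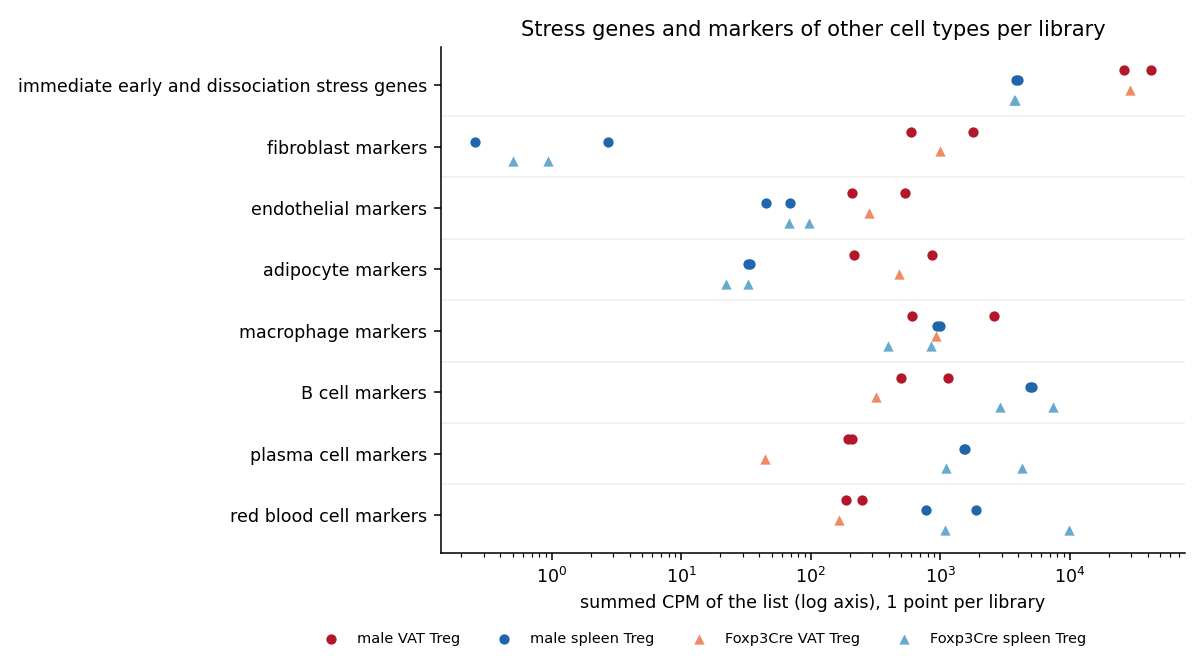
The x axis gives the summed CPM of a gene list on a log scale, with 1 point per library; circles are reporter Treg and triangles Foxp3Cre Treg, VAT in red or orange and spleen in dark or light blue. Immediate early, fibroblast, endothelial and adipocyte sums are higher in every VAT library than in every spleen library, B cell, plasma cell and red blood cell sums are lower, and macrophage sums overlap.

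Whole male VAT was set beside the genes that rose. Of the 608 genes, 266 (43.8%) had a higher mean CPM in whole male VAT than in male VAT Treg, as did 57% of all genes tested. The 608 genes were chosen for high values in these VAT Treg libraries. That choice by itself lowers the share. Those 266 genes had a median log2 fold change of 6.89, 173 of them were lower in VAT replicate 1 than in VAT replicate 2, and 7 were called higher in VAT Treg than in VAT CD4 T cells. The other 342 genes had a median of 2.14, 49 of them were lower in VAT replicate 1, and 119 were called higher than in VAT CD4 T cells. Over all genes tested, 1.34% were called higher than in VAT CD4 T cells. The split and that comparison use the same VAT Treg libraries, so these counts are a description. No share over all genes was taken for the order of the replicates. Il1rl1 (18.89 CPM in whole VAT), Areg (0.2207 CPM), Il10 (0.4886 CPM) and Klrg1 (1.358 CPM) were far below their VAT Treg levels there, and Col1a2 (772.7 CPM) and Fabp4 (9418 CPM) far above.

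Foxp3Cre males provided libraries that share none with those above. Foxp3 had 209.8 CPM in their VAT library and 149.9 and 34.82 CPM in their spleen libraries. Markers of other cells summed highest of the T cell libraries in Foxp3Cre spleen replicate 2, at 20600 CPM (unscaled CPM). VAT and spleen Treg of these mice differed at 853 genes (4.92% of those tested), 468 higher (2.7%) and 385 lower (2.22%) in VAT. Of the 608 genes higher in reporter VAT Treg, 599 (98.5%) had a positive log2 fold change in Foxp3Cre Treg, against 44.4% of all genes tested, and of the 529 lower genes 519 (98.1%) had a negative one. The genes called higher in both numbered 344, which is 56.6% of the reporter calls and 73.5% of the Foxp3Cre calls, and those called lower in both 232, which is 43.9% and 60.3%. No gene was called in opposite directions. Il1rl1 had 1860 CPM in the Foxp3Cre VAT library against 33.29 and 52.74 CPM in Foxp3Cre spleen Treg (5.44, adjusted p = 1.91e-08), near the reporter VAT Treg level. Pparg, which did not pass in reporter Treg, was called here (83.49 CPM in VAT, 1.138 and 1.018 CPM in spleen; 6.27, adjusted p = 0.00336). Cxcr3 had 386.7 CPM in VAT and 226.5 and 268.8 CPM in spleen (0.64, adjusted p = 0.173) and Tnfsf8 42.83 CPM in VAT and 41.54 and 43.67 CPM in spleen (0.01), and neither passed there. By list, 16 of 20 visceral fat Treg genes and 17 of 24 immediate early genes were called higher, and 7 of 20 interferon-stimulated genes, 7 of 20 resting genes and 12 of 20 ribosomal protein genes lower. Other lists had fewer calls than in reporter Treg: 2 of 20 T cell receptor signalling genes were lower, costimulatory and inhibitory receptors had 3 higher and 3 lower of 26, and lipid genes 5 higher and 1 lower of 30. Differences between the reporter and Foxp3Cre sets were not tested. The same other-cell markers moved, with 10 of 10 fibroblast markers higher (988.4 CPM in VAT, 0.4998 and 0.9292 CPM in spleen) and 7 of 10 B cell markers lower (318.2 CPM in VAT, 2873 and 7466 CPM in spleen). With 1 VAT library, this test assumes that it varies like the other groups. Without spleen replicate 2 of Foxp3Cre mice the count was 440.

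**Figure D5:**
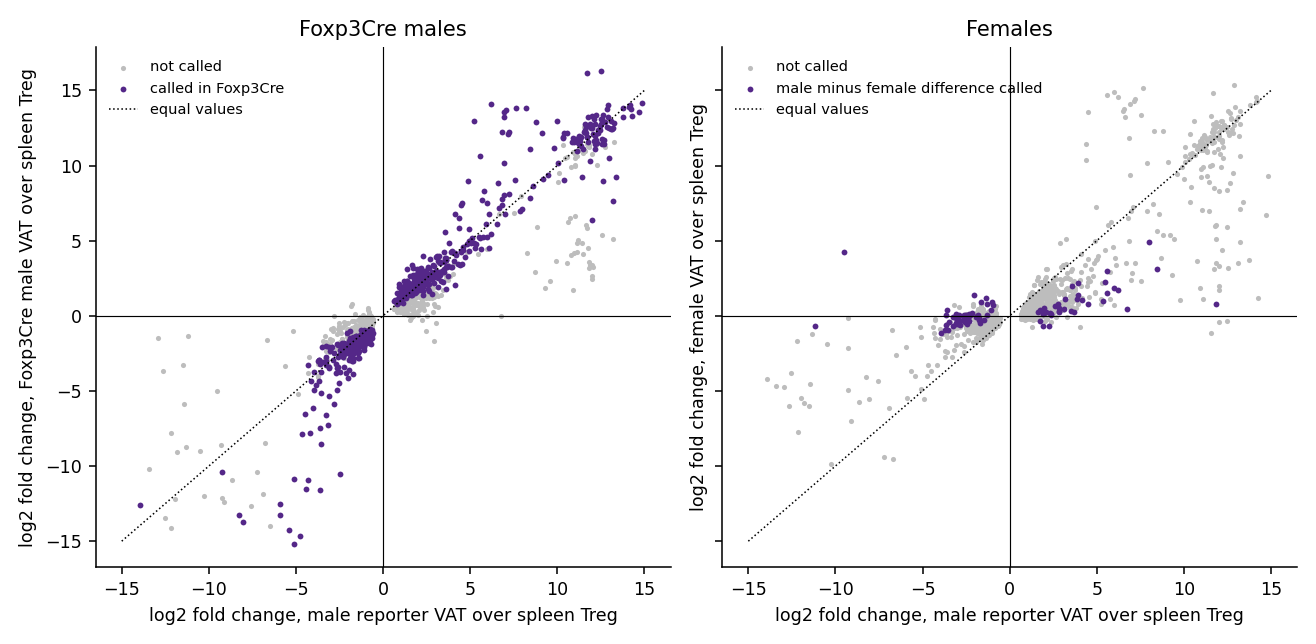
Each point is 1 of the 1137 genes called in male reporter Treg, with its log2 fold change there on the x axis and that in Foxp3Cre males (left) or females (right) on the y axis; the dotted line marks equal values. In Foxp3Cre males 599 of 608 higher genes lie above 0. In females the purple genes, whose male minus female difference was called, lie closer to 0 than in males. The genes were chosen by their male values, so this position is a description.

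The same tissues in females differed at fewer genes, 296 (1.71% of those tested), 247 higher (1.42%) and 49 lower (0.283%) in VAT. The female count was 78 without female spleen replicate 1, 529 without female spleen replicate 2 and 82 without female VAT replicate 2. The test of the difference between the sexes called 92 genes (0.531%), 37 positive (0.213%) and 55 negative (0.317%), and it called 48 without male spleen replicate 1, 59 without male VAT replicate 1, 52 without female VAT replicate 1 and 251 without female spleen replicate 2. Of the 608 genes higher in male VAT, 37 had a difference called larger in males and none one called smaller, and of the 529 lower genes these counts were 46 and 0. In females the median log2 fold change was 1.37 over the 608 genes and -0.44 over the 529, with 157 and 35 of them called in the same direction. The genes were chosen in males, and the male libraries also enter the test of the difference. The splits of 37 and 46 genes and the smaller medians in females are therefore a description. Il1rl1 showed the larger rise in males, with 2523 and 1874 CPM in male VAT and 33.86 and 25.08 CPM in male spleen Treg, against 116.9 and 149.0 CPM in female VAT and 40.1 and 38.98 CPM in female spleen Treg. Losses showed it too: Tcf7 had 646.6 and 499.3 CPM in female VAT and 628.4 and 602.1 CPM in female spleen Treg, close to both spleen groups (difference -3.17, SE 0.42, adjusted p = 0.000996). Of the interferon-stimulated list edgeR called 0 of 20 members in females, with 1 at an unadjusted p under 0.05, 1 called by DESeq2 and 0 by limma-voom. Of the resting list 1 was called lower and 2 higher in females. Immediate early genes had 12 of 24 called higher in females. The test of the difference between the sexes called 4 of these 24 positive. It called 1 of 20 interferon-stimulated genes and 4 of 20 resting genes negative.

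Reporter-negative CD4 T cells of male VAT are the other T cells of the same depot, and their comparison uses the same VAT Treg libraries as above. VAT Treg and VAT CD4 T cells differed at 422 genes (2.43% of those tested), 233 higher (1.34%) and 189 lower (1.09%) in Treg; the count was 183 without VAT Treg replicate 1 and 692 without VAT CD4 replicate 2. Of the 608 genes higher than in spleen Treg, 126 were also called higher than in VAT CD4 T cells and 1 lower, and of the 529 lower genes 133 were called lower and 7 higher. Il1rl1 had 25.44 and 18.57 CPM in VAT CD4 T cells (6.65, adjusted p = 7.77e-10), Klrg1 26.13 and 12.6 CPM (6.74, adjusted p = 4.46e-07) and Areg 36.77 and 23.46 CPM (5.87, adjusted p = 7.54e-06). Cxcr6 differed less, by 1.75 (adjusted p = 0.00318), and Id2 (0.27) and Il7r (-0.22) did not pass. Fibroblast markers, summing to 403.0 and 2199 CPM in VAT CD4 T cells, had none of 10 called by edgeR, DESeq2 or limma-voom in this comparison and 0 at an unadjusted p under 0.05, at a median log2 fold change of -0.26. Immediate early genes had 6 of 24 called higher in Treg and 1 lower.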

How the data were processed

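Gene counts were deposited by the authors as a table of whole-number read counts with 1 column per library; alignment with Subread 1.6.2 to mouse build GRCm38 (mm10) and counting with featureCounts are named per the submitters' processing notes, and the sources used here do not give the strand handling. The log2 FPKM values deposited by the authors per sample served only to check that each column matched its sample. Of the columns, 6 that match no sample here were not used. Libraries are pools of mice, with 11297674 to 61913009 reads in genes over the 19 T cell libraries, and counting intervals and floors cover counting error only.

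From the counts, edgeR 4.0.16 (R 4.3.3) was fitted over those 19 libraries with group as the term, trimmed-mean scaling, its expression filter and quasi-likelihood tests; p-values were Benjamini-Hochberg adjusted over 17340 genes and called under 0.05. Standard errors are the size of the log2 fold change over the root of F. Libraries of whole tissue, ILC2, stroma and adipocytes were given as unscaled CPM. A fold against a group at 0 used a floor of 3 counts over the group. The fit was tested on simulated data. Alternatives were DESeq2 1.42.0, limma 3.58.1 (voom), other scaling, no filter, other sets of libraries, a replicate block and leaving out each library. Fits without the 4 libraries highest in markers of other cells were added after seeing the data. So were fits of the 12 reporter libraries without a block and counts per list. Those 4 libraries were male spleen Treg replicate 1, female spleen Treg replicate 2, Foxp3Cre spleen Treg replicate 2 and male VAT CD4 replicate 2.

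The genes named were the 12 higher and 12 lower genes of smallest p with separate libraries and at least 10 CPM, up to 4 called members per list and direction, a set of Treg genes whatever their result, the 6 genes of largest sex difference each way and the 4 of largest log2 fold change each way, given in part; Il13, Csf2, Cd36 and any other gene outside this rule were chosen after their values were seen. The members, gene lists and tests were chosen with earlier results of these data known. Promoters came from RefSeq (GRCm38.p6). Some genes taken by this rule are not reported here.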

Additional observations from a re-analysis of the deposited data

Results flagged for a closer look

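The change between VAT and spleen differed between males and females at 92 genes by edgeR's test of the difference itself. Among the genes named above, the male minus female difference of the log2 fold changes was positive for Areg (5.35), Il1rl1 (4.47), Hilpda (4.34), Klrg1 (4.15), Cxcr6 (4.07), Cd69 (3.22) and Fgl2 (3.14). Smaller positive differences were called for Nfkbiz (3.05), Tnfrsf25 (2.90), Nfkbid (2.77), Dusp1 (2.58), Ccr2 (2.54), Il10ra (2.54) and S100a4 (2.33); they were also called for Nfkbia (2.2), S100a6 (2.13), Vim (2.11), Junb (1.73) and Csrnp1 (1.6). Negative differences were called for Tcf7 (-3.17), Art2b (-3.07), Sh2d1a (-3.03), Slamf6 (-2.98) and Cxcr5 (-2.82); further ones were called for Tbc1d4 (-2.77), Btla (-2.59), Ift80 (-2.57), Lax1 (-2.55), Nt5e (-2.52) and Tnfsf8 (-2.49); further ones were called for Cd96 (-2.35), Izumo1r (-2.23), Cxcr3 (-1.84) and Pnrc2 (-1.21). Of these genes, those with positive differences were higher in male VAT than in male spleen Treg, and those with negative differences were lower. Male values enter both measures, so this match of direction is favoured from the start and is a description. The 6 most negative differences under the naming rule were of another kind. They were Aurkb (-12.36), Cpe (-11.52), Cdc6 (-11.51), Fzd5 (-11.18), Fndc10 (-10.93) and Gins2 (-10.93). None was called in males, and each had 0 CPM in both female spleen libraries. The female spleen libraries carry no stated relation to the male ones, so sex cannot be told apart from any difference in how the sets were collected. Groups of 2 libraries are too small for a search for single libraries that stand apart.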

How the results depend on the processing

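No gene called in the comparison of male VAT with male spleen Treg was called in the opposite direction under any alternative run, and no named gene that was called changed sign. Of the uncalled ones, those named only for the sex difference are left aside here. Ikzf2 (0.02) was at -0.04 with limma-voom and between -0.33 and 0.3 without 1 library, and Cd3e (-0.21) between -0.48 and 0.03. Cd4 (-0.01) was at 0.05 with DESeq2 and with its size factors, 0.03 in the compared libraries alone, 0.08 with the replicate block, 0.09 in the 12 libraries without it, 0.0 without the 4 libraries highest in markers of other cells, and between -0.12 and 0.11 without 1 library. The count of 1137 genes became 2111 with DESeq2, 2872 with limma-voom and 405 to 789 without 1 library. The female count of 296 became 1285 with DESeq2, 613 with limma-voom, 575 without a filter, 1 in a fit of the compared libraries alone, 1115 without the 4 libraries highest in markers of other cells, and 78 to 529 without 1 library. The count of 92 sex differences became 426, 158, 166, 40 and 358 under the same 5 settings, and 48 to 251 without 1 library. The Foxp3Cre count of 853 became 1922 with DESeq2, 2560 with limma-voom, 548 in the compared libraries alone and 440 to 706 without 1 library. The count of 422 against VAT CD4 T cells became 953 with DESeq2, 698 with limma-voom, 859 without the 4 libraries, 183 to 692 without 1 library and 0 in the compared libraries alone, where edgeR gave 1411 genes at an unadjusted p under 0.05. The male count was 1643 in a fit of its 4 libraries alone. The cause of these changes was not tested. With a replicate block the counts were 757, 99, 42 and 245 for the male, female, sex difference and CD4 comparisons, and 670, 56, 29 and 221 in the same 12 libraries without the block; deviations of same-numbered male VAT and spleen libraries correlated at 0, those of male VAT Treg with male VAT CD4 at 0.4 and with female VAT Treg at 0.26, and those of female VAT Treg with female spleen Treg at 0. With 2 libraries a group and no label of a shared origin, the numbers were not taken to pair libraries. The block could not be fitted for Foxp3Cre, where VAT has 1 library. Of 95 called genes named in the text, 74 were called in all 4 fits that left out 1 library. With DESeq2 size factors 58.1% of the calls were higher in VAT, against 53.5% with trimmed-mean scaling. Having 2 libraries a group limits what low genes can show.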
